A study of Mus musculus with 4 samples.

Results

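The genes described here are *Jak1*, *Jak3* and *Tyk2*, which encode Janus kinases, and *Stat2*, *Stat3*, *Stat4*, *Stat5a*, *Stat5b* and *Stat6*, which encode signal transducers and activators of transcription. They are the 9 rows of these names among the 25239 genes of the count table, and all 9 had at least 10 counts in each of the 4 libraries, which held for 69.2% of the 11689 genes that were tested. Other genes of these families are not analysed here. The libraries were made by bulk RNA-seq from invariant NKT cells, a T cell lineage whose receptor reads lipid antigens on CD1d, of the small intestinal lamina propria (SI-LP) of wild-type C57BL/6Jax mice, young adults of both sexes, sorted on a PBS57-loaded CD1d tetramer and the T cell receptor β chain. Per the methods, the sort also excluded cells with B220, CD11b, CD11c or CD8 on their surface. Replicates 3 and 4 belong to a first experiment and replicates 1 and 2 to a second. All 4 libraries are of 1 condition, and the labels do not say whether a library holds cells of 1 mouse or of a pool.

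Cytokine receptors without kinase activity of their own carry Janus kinases on their intracellular tails. Ligand binding lets the kinases phosphorylate each other and the receptor, STAT proteins dock there, are phosphorylated in turn, and move to the nucleus as dimers that bind DNA. In NKT cells, interleukin (IL)-15 and IL-7 maintain the population through JAK1, JAK3 and STAT5, IL-12 raises interferon (IFN)-γ production through TYK2 and STAT4, and IL-4 acts through STAT6. Transcript levels show which of these proteins can be made and not whether the pathway is active, which depends on phosphorylation.

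Libraries held 3882803 to 8732858 counts, of which the ribosomal RNA gene *Rn45s* took 7.36% to 28.1%. A gene with 0 counts could still have a level of up to 3 counts, which is 0.344 to 0.773 CPM (counts scaled to library size). This floor uses total counts alone, whereas the CPM of genes below also carries a TMM factor for each library. The 9 T cell markers, *Cd3e* among them, all had more than 3 counts in each library and made up 0.327% of the counts in replicate 1, 0.138% in replicate 2, 0.407% in replicate 3 and 0.191% in replicate 4, whereas *Cd8a* and *Cd8b1* together took at most 0.000149%. Because cells with CD8 were excluded by the sort, this low share was selected for. For 21 genes of the gut epithelium (*Epcam* and others) the shares were 0.0994%, 1.03%, 0.0153% and 2.94%, and for 6 plasma cell genes 0.655%, 0.839%, 0.0114% and 0.0387%. The widest 95% Wilson interval of these shares, for the epithelial markers in replicate 4, ran from 2.93% to 2.96%. The sum of the 9 JAK and STAT genes was 0.246%, 0.144%, 0.185% and 0.115% of all counts in replicates 1 to 4.

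Of the Janus kinases, *Jak1* was by far the most abundant, and *Jak3* the most variable of all 9 genes, although without replicate 2 *Stat4* was (SD of log2 CPM 1.45, against 0.65 for *Jak3*). *Jak1* (chromosome 4, 101151974 to 101265282, minus strand, GRCm38 as are all coordinates here) encodes the kinase shared by receptors for γ chain cytokines, interferons and the IL-6 family. It had 1031, 506, 832 and 458 CPM in replicates 1 to 4, a mean of 707 ± 273 CPM (SD, n = 4), and was the highest of the 9 genes in each library by TPM, a level corrected for exonic length as well as depth. *Tyk2* (chromosome 9, 21104068 to 21131275, minus strand) encodes the partner kinase of the IL-12 and type I IFN receptors. Its level was 80.9, 35.7, 46.0 and 28.2 CPM, with a mean of 47.7 ± 23.3 CPM. The libraries had the same order for *Jak1* and *Tyk2* (replicates 1, 3, 2 and 4 from high to low), and the ratio of *Jak1* to *Tyk2* in TPM stayed between 11.7 and 16.6.

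*Jak3* (chromosome 8, 71676383 to 71690577, plus strand) encodes the kinase that binds the common γ chain and is largely restricted to blood cells. It had 51.3, 4.91, 109.7 and 49.4 CPM in replicates 1 to 4, a mean of 53.8 ± 43.0 CPM. Replicate 2 stood lowest, with 51 counts in the deepest library. The highest library exceeded the lowest 22.4-fold, and 2.22-fold without replicate 2, so that this range rests on that library. The ratio of *Jak1* to *Jak3* in TPM was 15.5, 79.4, 5.85 and 7.15 in replicates 1 to 4, and *Jak3* lay above *Tyk2* by TPM in replicates 3 and 4 and below it in replicates 1 and 2. In bulk libraries, a lower share of the cells that express a gene and less of its RNA per cell cannot be told apart. Of the 4085 exonic bases of *Jak3*, 406 are shared with the same-strand gene *Insl3*, which had 0 counts in all libraries. Fragments that fall on exons of both genes are assigned to neither by this kind of counting.

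**Figure D1:**
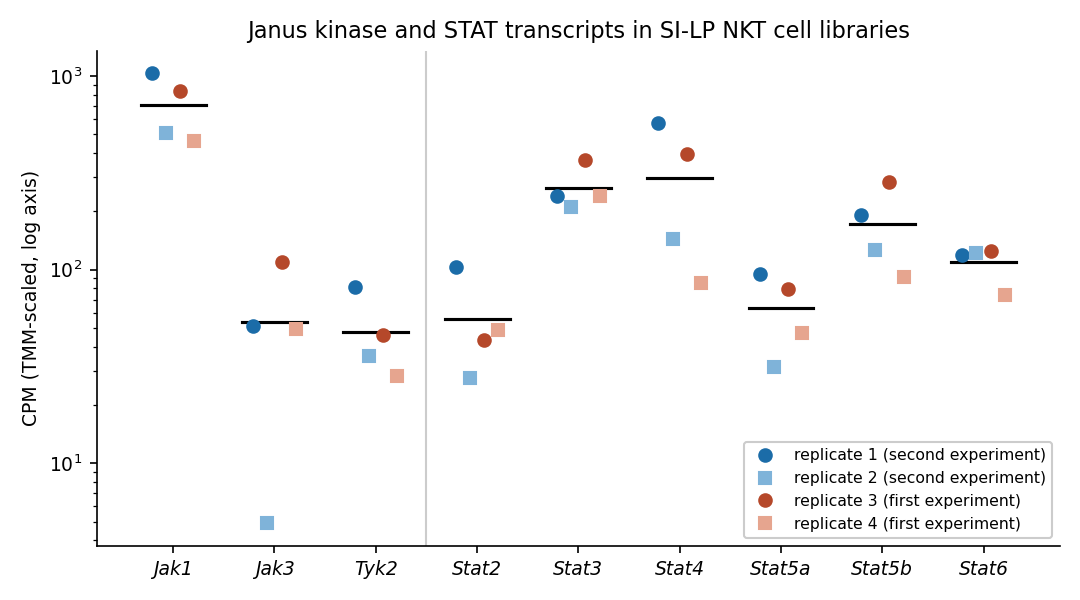
TMM-scaled CPM of the 9 genes in each library on a log axis, with points for replicates and a black line for the mean of 4 libraries. *Jak1* stands at 458 to 1031 CPM, and *Jak3* in replicate 2 is the lowest point, at 4.91 CPM.

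Among the STAT genes, *Stat4* had the highest mean level over the 4 libraries and *Stat3* the smallest spread, and both ranks rested on 1 library. Without replicate 1 the mean was 208 CPM for *Stat4* and 272 CPM for *Stat3*, and without replicate 4 the SD of log2 CPM was 0.04 for *Stat6* and 0.41 for *Stat3*. *Stat4* (chromosome 1, 51987148 to 52107189, plus strand) encodes the transducer of IL-12 signals in cells that produce IFN-γ. It had 569, 143, 394 and 85.5 CPM in replicates 1 to 4 (298 ± 225 CPM, SD, n = 4). Replicates 1 and 3, each of a different experiment, were the high ones, and the highest library exceeded the lowest 6.65-fold (3.97-fold without replicate 4). *Stat3* (chromosome 11, 100886806 to 100939540, minus strand), which transduces IL-6, IL-10, IL-21 and IL-23 signals in most cell types, had 241, 211, 366 and 240.1 CPM, a mean of 264 ± 68.8 CPM. Its libraries lay within 1.73-fold of each other, and within 1.14-fold without replicate 3. By TPM with the deposited exonic lengths, *Stat4* was above *Stat3* in replicates 1 and 3, at 3.39 and 1.55 times its level. It was below *Stat3* in replicates 2 and 4, at 0.974 and 0.511 times.

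*Stat6* (chromosome 10, 127642986 to 127660987, plus strand), the transducer of IL-4 and IL-13, had 118, 122, 125 and 73.6 CPM in replicates 1 to 4 (109.8 ± 24.2 CPM, SD, n = 4). The first 3 of these lay within 1.06-fold of each other and replicate 4 stood below them. *Stat6* was lower than *Stat3* by TPM in all libraries, by 1.45-fold to 2.74-fold. It shares 70 exonic bases with *Nab2* on the opposite strand. *Stat2* (chromosome 10, 128270498 to 128292853, plus strand) joins IRF9 in the complex that type I IFN receptors activate. It had 103, 27.4, 43.1 and 48.7 CPM, with a mean of 55.5 ± 32.8 CPM. Replicate 1 was the high one, and without it the libraries lay within 1.77-fold of each other, against 3.75-fold with it. Without replicate 2 the range was 2.39-fold.

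*Stat5a* (chromosome 11, 100859351 to 100885169, plus strand) and *Stat5b* (chromosome 11, 100780731 to 100850581, minus strand) encode the transducers of IL-2, IL-7 and IL-15, which sustain lymphocytes. *Stat5a* lies head to head with *Stat5b* and tail to tail with *Stat3*, with 8769 bases between *Stat5b* and *Stat5a* and 1636 between *Stat5a* and *Stat3*. *Stat5a* had 94.6, 31.5, 79.0 and 47.2 CPM in replicates 1 to 4 (63.0 ± 28.8 CPM) and *Stat5b* 191, 126, 282 and 91.0 CPM (173 ± 84.1 CPM). On that scale *Stat5b* was higher in each library. Its exonic length in the table is 7954 bases against 3968 for *Stat5a*. By TPM with these lengths the ratio of *Stat5b* to *Stat5a* was 1.01, 2.00, 1.78 and 0.963. The mean log2 ratio was 0.45 ± 0.55 (SD, n = 4), within the spread between libraries. In the canonical GENCODE transcripts *Stat5b* has 5095 bases and *Stat5a* 3958. Those lengths would give a higher ratio in each library, so the nearness of the pair by TPM rests on the deposited lengths.

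The coding sequences of this pair are 90.7% identical over 2346 aligned bases, whereas the other pairs of STAT genes share 54.0% to 61.6% of their aligned bases. Stretches of the canonical GENCODE transcripts are shown because counts of the pair rest on reads that differ between them. The longest identical run spans 324 bases from coding base 571, counted from the A of the start codon, and its middle part (coding bases 658 to 807) reads the same in both genes:
Stat5a and Stat5b: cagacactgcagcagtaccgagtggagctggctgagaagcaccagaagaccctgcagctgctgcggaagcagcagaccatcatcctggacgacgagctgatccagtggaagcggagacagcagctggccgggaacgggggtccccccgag
In the most different stretch of this length (coding bases 15 to 164), 37 bases differ, which are in capitals:
Stat5a: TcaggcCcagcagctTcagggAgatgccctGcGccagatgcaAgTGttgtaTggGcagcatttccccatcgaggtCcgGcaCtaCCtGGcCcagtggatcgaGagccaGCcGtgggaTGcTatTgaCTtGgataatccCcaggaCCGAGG
Stat5b: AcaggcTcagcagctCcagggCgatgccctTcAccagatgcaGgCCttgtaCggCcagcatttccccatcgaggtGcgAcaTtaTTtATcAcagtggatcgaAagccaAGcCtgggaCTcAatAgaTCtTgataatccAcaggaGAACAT
Reads of 101 bases with the same sequence in both transcripts start at 262 positions, which is 6.79% of those in *Stat5a* and 5.25% of those in *Stat5b*. A read from these positions cannot be placed by its own sequence, so the split of counts between *Stat5a* and *Stat5b* is uncertain there.

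By mean TPM the order was *Jak1* (368 ± 159 TPM, SD, n = 4), *Stat4* (263 ± 209.8), *Stat3* (158 ± 29.2), *Stat6* (79.8 ± 22.7), *Stat5b* (58.8 ± 25.8), *Stat5a* (43.4 ± 21.3), *Stat2* (34.5 ± 23.1), *Jak3* (34.2 ± 25.5) and *Tyk2* (27.4 ± 15.4). Of the 36 pairs of genes, 28 had the same order in all 4 libraries. Of the 8 neighbours in this order, *Jak1* above *Stat4*, *Stat3* above *Stat6* and *Stat5a* above *Stat2* held in all libraries. The mean log2 difference exceeded its SD between libraries for *Jak1* and *Stat4* (0.79 ± 0.72), *Stat3* and *Stat6* (1.02 ± 0.43) and *Stat6* and *Stat5b* (0.51 ± 0.49), the last of which held its order in 3 libraries. The other 5 neighbours did not differ beyond their spread, and for *Jak3* and *Tyk2*, at -0.11 ± 1.85, not even the direction of the mean log2 difference matched that of the mean TPM. An exact sign-flip permutation test of 4 paired differences cannot pass a threshold of 0.05, so none is reported. By CPM, which has no length correction, *Stat5b* was above *Stat6* in all 4 libraries (0.55 ± 0.49 log2 units), the reverse of the TPM order. *Stat5a* was above *Stat2* by CPM in 2 libraries only. TPM rests on the deposited exonic lengths, and that of *Stat4* is 3151 bases, against 8062 in its canonical GENCODE transcript. For *Stat5b* it is 7954 bases against 5095, and for *Jak3* 4085 against 6277. A longer length lowers TPM, so the place of *Stat4* above *Stat3* in this order rests on the deposited length.

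Against all genes tested, *Jak1* stood on average at percentile 96.6 ± 1.10 by TPM (SD, n = 4), *Stat3* at 91.7 ± 2.07, *Stat4* at 91.6 ± 6.78 and *Stat6* at 81.5 ± 4.21. These 4 of the 9 genes lay above percentile 75 on average, as did 20.9% of all genes tested. *Stat5b*, *Stat5a*, *Stat2*, *Jak3* and *Tyk2* stood at 73.0, 65.9, 59.3, 55.6 and 53.7. Ranked among the 8089 genes that reached 10 counts in every library, they stood at 63.8, 54.8, 46.4, 44.7 and 39.7. The percentile of *Jak3* ranged from 15.2 in replicate 2 to 81.4 in replicate 3, and that of *Jak1* from 95.6 to 97.9.

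Within the families, *Jak1* held 81.2% to 91.8% of the summed TPM of the 3 kinases in each library. *Jak3* held 5.61%, 1.16%, 13.9% and 11.6% in replicates 1 to 4 and *Tyk2* 7.42%, 7.05%, 4.88% and 5.55%. *Stat4* was the largest part of the 6 STAT genes in replicates 1 and 3, at 53.8% and 41.2%, and *Stat3* in replicates 2 and 4, at 30.3% and 39.7%. These shares use the deposited length of *Stat4*, 3151 bases, against 8062 in its canonical GENCODE transcript. The longer length would lower its share in each library, and its first place in replicate 3 rests on the deposited one. *Stat5a* and *Stat5b* each held 5.14% to 11.7% in all libraries.

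**Figure D2:**
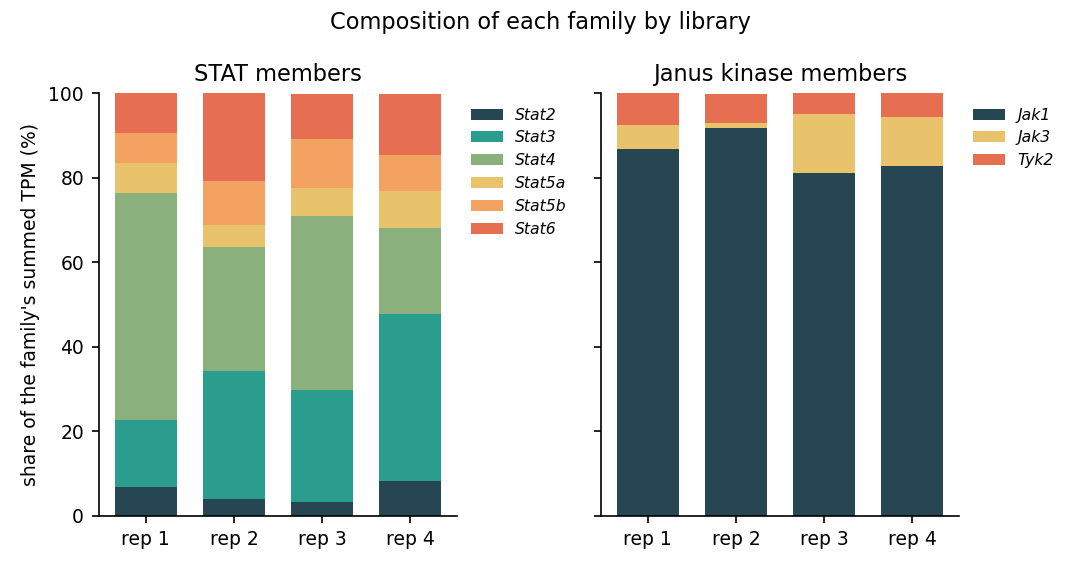
Share of each family's summed TPM (percent) taken by each gene in replicates 1 to 4, for the 6 STAT genes (left) and the 3 Janus kinases (right). *Stat4* is the largest STAT block in replicates 1 and 3 and *Jak1* takes at least 81.2% of the kinase sum in each library. The shares rest on the deposited exonic lengths.

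The experiments are the only factor that the labels give, and the comparison between them measures a difference between experiments and no treatment. None of the 9 genes differed between the second and the first experiment at an adjusted p under 0.05 (edgeR's quasi-likelihood test, Benjamini-Hochberg over 11689 genes), nor did any other gene (0% of those tested, 248 at an unadjusted p under 0.05). DESeq2 called 41 genes, of which 0 were among the 9. At an unadjusted p under 0.05, 0 of the 9 passed with either tool. With 2 libraries per experiment and a common biological coefficient of variation of 0.976 in edgeR, large differences could be missed. The result therefore does not show that the experiments agree. In 0 of the 9 genes did the CPM of the 2 experiments not overlap, which held for 29.1% of all genes tested.
*Jak3* had the largest difference, with 28.1 CPM on average in the second and 79.6 CPM in the first experiment, a log2 fold change of -1.50 (standard error 1.16, adjusted p = 0.9997 by edgeR). It was -0.63 without replicate 2, -0.83 without replicate 3 and -3.98 without replicate 1. Each of these fits leaves 1 library alone in its experiment, so only the effect size is given here. The log2 fold change was 0.65 ± 0.80 (standard error) for *Tyk2*, 0.57 ± 0.96 for *Stat4*, 0.51 ± 0.85 for *Stat2* and -0.42 ± 0.56 for *Stat3*. The remaining 4 genes lay between -0.24 and 0.28, less than their standard errors of 0.59 to 0.80. Without replicate 1, the differences of *Stat2*, *Stat4*, *Jak1* and *Tyk2* took the other sign.

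**Figure D3:**
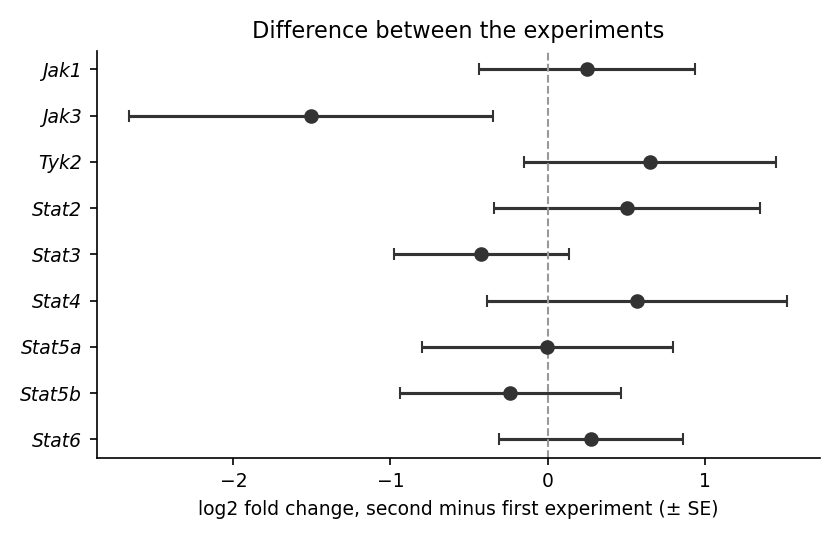
Log2 fold change of each gene between the second and the first experiment (points) with its standard error (bars), from edgeR on 2 libraries each. Every bar but that of *Jak3*, at -1.50 ± 1.16, crosses 0.

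Within each experiment, most of the genes were lower in one of its libraries. Replicates 2 and 4 are those with the larger epithelial and the smaller T cell marker share in their experiment, so the difference of replicate 4 from 3 and of replicate 2 from 1 is given for each gene. Both comparisons set 1 library against 1 and have no test. In log2 CPM, the differences were -2.20 and -1.99 for *Stat4*, -1.15 and -3.30 for *Jak3*, -1.63 and -0.59 for *Stat5b*, -0.74 and -1.58 for *Stat5a*, -0.86 and -1.03 for *Jak1* and -0.70 and -1.17 for *Tyk2*. They were -0.61 and -0.19 for *Stat3*, -0.76 and 0.05 for *Stat6* and 0.17 and -1.90 for *Stat2*. Thus 7 of the 9 genes were lower in both (30.0% of all genes tested), 2 of them, *Stat4* and *Jak3*, by over 1 log2 unit in both (8.08% of all genes), and 0 were higher in both (35.4% of all genes).
Beside this, the T cell markers differed by a median of -1.47 and -1.03 log2 units, the epithelial markers by 5.62 and 3.43, and all genes tested by 0.08 and 0.13. Over the 8089 genes that, like all 9 here, reached 10 counts in every library, the medians were -0.18 and -0.12. Of these, 682 were lower and 721 higher by over 1 log2 unit in both, against 945 and 2224 of the 11689 tested. The part of other cells in the differences of the JAK and STAT genes was not tested. Scaling by library size alone raised the median over all genes by 0.34 and 0.26 log2 units. It left 6 of the 9 genes lower in both, without *Stat3*, and 1 by over 1 log2 unit in both. With library size alone, 22.0% of all genes tested were lower in both and 42.7% higher in both.
Relative to the mean log2 CPM of the T cell markers in each library, *Stat4* alone stayed lower in both (by -0.62 and -0.81 log2 units), while *Stat3*, *Stat6*, *Jak1* and *Tyk2* were higher in both, by 0.98 and 0.98, 0.82 and 1.22, 0.72 and 0.15, and 0.88 and 0.00. On this scale 3.70% of all genes tested were lower in both and 72.5% higher in both.

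**Figure D4:**
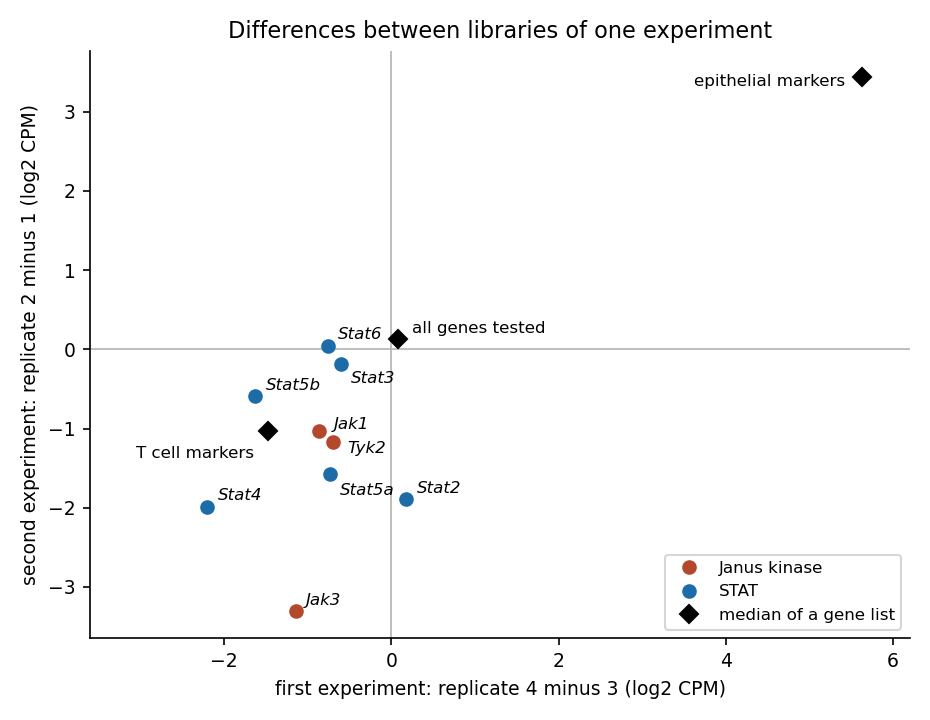
Difference in log2 CPM between the libraries of the first (horizontal axis) and of the second experiment (vertical axis), for each gene and, as diamonds, the median of the T cell markers, the epithelial markers and all genes tested. Of the 9 genes, 7 lie below 0 on both axes, in the quadrant of the T cell markers, and the epithelial markers lie at 5.62 and 3.43.

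The SD of log2 CPM over the 4 libraries was 0.34 for *Stat3*, 0.36 for *Stat6*, 0.56 for *Jak1*, 0.65 for *Tyk2*, 0.71 for *Stat5b*, 0.72 for *Stat5a*, 0.79 for *Stat2*, 1.26 for *Stat4* and 1.90 for *Jak3*. The median over the 9 genes was 0.71, against 1.02 over all genes tested and 0.76 over the 8089 genes that reached 10 counts in every library. It was 0.436 when the data were normalized and fitted without replicate 1. The SD of single genes also rested on 1 library in places, as that of *Stat6* was 0.04 without replicate 4, *Stat3* 0.11 without replicate 3, *Jak3* 0.65 without replicate 2, and *Stat2* and *Tyk2* 0.43 and 0.35 without replicate 1. A share of 6.90% of all genes tested had a smaller SD than *Stat3* and 7.86% than *Stat6*, whereas 76.7% had a smaller SD than *Jak3*. Among the 8089 genes, which hold all 9, these shares were 9.94%, 11.3% and 96.6%. Relative to the T cell markers, the SD was smaller than in CPM for 4 genes, namely *Stat4* (0.88), *Stat5a* (0.49), *Stat5b* (0.44) and *Jak3* (1.23), and larger for the other 5, with *Stat3* at 0.59 and *Stat6* at 0.84. On this scale the median SD was 0.82 over the 9 genes, 1.35 over all genes tested and 1.06 over the 8089 genes. *Stat4*, *Stat5b* and *Jak3* kept the smaller SD whichever library was left out. Without replicate 2, 3 genes had the smaller SD (*Stat5a* no longer did), and without replicate 3, 7 genes, now with *Stat2*, *Jak1* and *Tyk2*.

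Likeness of pattern was measured over the 4 libraries as the root mean square distance between log2 CPM values centred on each gene's mean, among the same 8089 genes. Within the 9 genes, *Jak1* and *Tyk2* were each other's nearest, at 0.19 log2 units, and 2.93% and 1.83% of all genes lay closer to them. *Stat3* and *Stat6* were each other's nearest at 0.37, with 14.2% and 15.9% of genes closer. *Stat5a* and *Stat5b* both lay nearest to *Jak1*, at 0.28 and 0.34, and not to each other. *Jak3* was the most isolated, 1.19 from *Stat5a*, its nearest. Of all genes, the nearest to *Stat4* was *Dok2*, an adaptor of lymphoid and myeloid cells (0.05), the nearest to *Jak3* was *Gpsm3* (0.11), and the nearest to *Jak1* was *Pde4b*, a cyclic AMP phosphodiesterase (0.02). For the STAT genes other than *Stat4* the nearest were *Zfp605* (*Stat2*), *Rpl17* (*Stat3*), *Tmem165* (*Stat5a*), *Crim1* (*Stat5b*) and *Yme1l1* (*Stat6*), at 0.02 to 0.05 log2 units. With 4 libraries, the nearest of 8089 genes can come this close without any link to the member.

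Beside the kinases stand the receptor chains that carry them. *Il2rb*, the chain of the IL-2 and IL-15 receptors that binds JAK1, had 2109, 443, 2869 and 1175 TPM in replicates 1 to 4, and *Il2rg*, the common γ chain that binds JAK3, 2170.1, 678, 1313 and 420 TPM. The receptor transcript exceeded that of its kinase in all libraries, by 1.52-fold to 7.47-fold for *Il2rb* over *Jak1* and by 14.1-fold to 184-fold for *Il2rg* over *Jak3*. The upper value is that of replicate 2, with its low *Jak3*, and without this library the highest was 57.9-fold. *Ifngr1*, the ligand-binding chain of the IFN-γ receptor and a JAK1 partner, was 1.29-fold to 2.63-fold above *Jak1*. *Il7r* was at 0.480 to 1.06 times and *Il4ra* at 0.162 to 0.492 times the level of *Jak1*. *Il12rb1*, which binds TYK2, had 43.5, 30.1, 86.4 and 8.65 TPM, from 0.606 to 3.74 times the level of *Tyk2*, while *Il12rb2*, the chain that recruits STAT4, was higher, at 488 ± 277 TPM (SD, n = 4). *Ifngr2* had 7.51, 43.4, 5.48 and 65.5 TPM, and thus, unlike *Ifngr1* with 749, 485, 1011 and 365 TPM, was higher in replicates 2 and 4. Of 19 receptor chains listed, 18 were tested, with 0 called between the experiments in either direction, a median log2 fold change of -0.53 (0.03 over all genes tested) and a median percentile of 79.6. The lowest of those tested was *Il23r*, with 2.53 ± 2.95 TPM.

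The inhibitors were led by *Ptprc*, which encodes the phosphatase CD45 (479 ± 288 TPM, SD, n = 4), *Socs2* (133 ± 57.5 TPM), a suppressor of cytokine signalling induced by STAT5, and *Pias1* (74.4 ± 25.2 TPM). Of those tested, *Socs1* was the lowest. It was counted 16 and 23 times in replicates 3 and 4 and not at all (0 counts) in replicates 1 and 2. The depth of these libraries allows up to 0.415 and 0.344 CPM by total counts, without the TMM factor. It entered the test through the first experiment alone, where it is high, so its difference between the experiments is given as counts, with no p. All 18 inhibitors were tested, with 0 called in either direction and a median log2 fold change of -0.24. Their median percentile was 61.7. Among 8 cofactors and adaptors, all tested and 0 called, *Crebbp*, a histone acetyltransferase that STATs recruit, had 141 ± 25.1 TPM, the kinase gene *Ptk2b* 121 ± 51.8 TPM and *Ep300*, another acetyltransferase, 72.7 ± 23.4 TPM, and *Stam* was lowest with 14.4 ± 5.67 TPM. The median log2 fold change of this list was -0.21.

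Genes that STATs are known to induce had the highest median percentile of the pathway lists, although at 80.0 it was close to the 79.6 of the receptor chains. *Gzmb*, which encodes the cytotoxic protease granzyme B, had 1376, 507, 599 and 154 TPM in replicates 1 to 4, the costimulatory receptor gene *Icos* 493 ± 289 TPM and the cyclin gene *Ccnd2* 461 ± 206 TPM (SD, n = 4). *Socs1*, which is also in this list, was the lowest of those tested. Of 24 target genes, 23 were tested and 0 were called in either direction, with a median log2 fold change of -0.64 and a median percentile of 80.0. The medians of the JAK and STAT genes were 0.25 and 73.0. The median percentile was 48.1 over all genes tested and 60.8 over the 8089 genes that reached 10 counts in every library. The lists share *Cish*, *Socs1*, *Socs3* and *Il2ra*, and the listed targets are also induced by other signals.

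**Figure D5:**
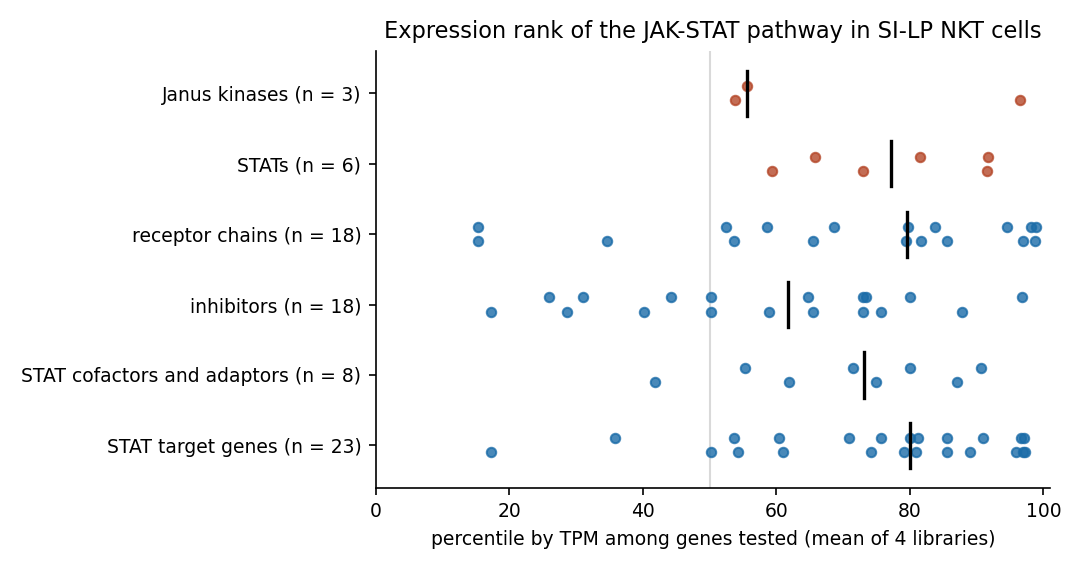
Percentile by TPM among all genes tested, as the mean of 4 libraries, for the genes described here (red) and the other genes of the pathway that were tested (blue), with a black line at the median of each list. The medians run from 55.6 for the kinases to 80.0 for the target genes, and *Jak1* at 96.6 stands apart from the other kinases.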

How the data were processed

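Bulk RNA-seq of 4 libraries of sorted SI-LP NKT cells was analysed. The authors deposited raw counts of fragments per gene. Per the file headers, featureCounts 1.6.4 assigned primary alignments to exons of an mm10 (GRCm38) RefSeq annotation without regard to strand, so genes that overlap on opposite strands cannot be told apart there (*Jak1* and *Raver2* over 397 of 5299 bases, *Stat6* and *Nab2*). Exons of *Stat2* overlap *Apof* over 220 bases. The methods name HISAT2 and GRCm39, while the submitters' processing notes list Bowtie2, RSEM and GRCm38 with no role given. Of 6 library columns, 2 matched no sample label and were not used.

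TMM factors of edgeR gave CPM and log2 CPM (prior count 2), and TPM used the deposited exonic lengths. The experiments were compared by edgeR's quasi-likelihood test on genes reaching 10 counts in 2 or more libraries. The script was tested on simulated data, whose spread was smaller than that of these libraries. Percentiles are ranks by TPM among the tested genes. Wilson intervals (95%) and the 3-count floor describe counting error alone, because PCR copies are not independent molecules. The labels do not say that libraries come from separate animals, so p-values measure the spread between these samples. Transcript sequences are from GENCODE vM39.

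The genes, the pathway and marker lists and the tests were chosen with earlier results of these data known. Named were all 9 genes, the 3 highest and the lowest tested gene of each pathway list by mean TPM, receptor chains set beside their kinase, the nearest gene in pattern (that of *Tyk2* is not reported here) and genes with overlapping exons. Alternatives were DESeq2, median-of-ratios factors, library size alone, a table without *Rn45s*, other filters, CPM ranks, scaling to T cell markers and leaving out each replicate. Tools were edgeR 4.0.16 and DESeq2 1.42.0 in R 4.3.3, and pandas 2.3.3, scipy 1.17.1 and numpy 2.4.6 in Python 3.11.15, with figures by matplotlib 3.10.9.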

Additional observations from a re-analysis of the deposited data

Results flagged for a closer look

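Of the 9 genes, *Stat6* had 1 library far from the others. Its level was 73.6 CPM in replicate 4, against 118 to 125 CPM elsewhere, a gap of 0.869 of the whole range. Chance alone marks about 1 in 20 groups in this way, which over 9 genes is 0.45. Without replicate 4 the mean of *Stat6* was 122 CPM, against 109.8 CPM with it.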

How the results depend on the processing

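Under each alternative, 0 of the 9 genes were called between the experiments. The count over all genes was 0 with edgeR under TMM, under both other scalings, without *Rn45s* and with the filter on all 4 libraries. It was 60 without a filter, 41 with DESeq2 and 0 to 7 with 1 replicate left out, and the cause was not tested. The log2 fold change of *Stat5a* (-0.0018) took the other sign with median-of-ratios factors (0.0235), library size alone (0.22), the table without *Rn45s* (0.0231), no filter (0.044) and DESeq2 (0.0233), and that of *Stat5b* (-0.24) with library size alone (0.075). With 1 replicate left out, the sign changed for 7 genes, whose values ran from -0.71 to 1.15 for *Stat2*, from -0.70 to 2.04 for *Stat4*, from -0.97 to 0.58 for *Stat5a*, from -0.83 to 0.79 for *Stat5b*, from -0.045 to 0.69 for *Stat6*, from -0.31 to 0.73 for *Jak1* and from -0.021 to 1.12 for *Tyk2*. An arm with a lone library was assumed to vary like the other. The mean CPM of each of the 9 genes moved by less than its SD. Percentiles moved beyond their SD with CPM in place of TPM for *Stat3* (94.7), *Stat5b* (89.2) and *Jak1* (98.9), and with the filter on all 4 libraries for *Stat3* (88.5), *Stat6* (74.6), *Jak1* (95.2) and *Tyk2* (39.7). The median difference of the 9 genes within an experiment went from -0.76 to 0.82 (replicate 4 against 3) and from -1.17 to 0.0014 (replicate 2 against 1) relative to the T cell markers. No paired analysis was possible because the experiments share no replicate number and the samples are of 1 condition.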
